A study of Homo sapiens with 6 samples.

Results

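SKNMC is an Ewing sarcoma cell line, a bone and soft tissue tumor line driven by the fusion protein EWS-FLI1. RNA of SKNMC cells kept for 6 h with 50 nM THZ1, the low dose of the study, was compared with RNA of SKNMC cells kept for 6 h with the vehicle DMSO. The members are the 11895 genes above 1 FPKM with DMSO, out of 27420 listed genes, and are called active genes here. FPKM is the number of fragments scaled to transcript length and to library size, so levels can be set side by side between genes. The active genes comprise 11550 protein-coding and 345 lincRNA genes (long intergenic noncoding RNA). The comparison uses 2 of the 6 libraries of the series, which also hold SKNMC at 200 nM and A673, another Ewing sarcoma line, with DMSO, 50 nM and 200 nM. All cultures were kept in DMEM with fetal bovine serum. The labels give 1 library for each condition, so the differences have no replicate check and carry no p-value. A gene is said to have fallen or risen where FPKM with 1 added changed at least 2-fold, and to have held where it stayed within 1.5-fold. All log2 fold changes are log2 of the ratio of FPKM + 1, which understates the change of low genes.

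THZ1 binds CDK7 covalently and also acts on the related kinases CDK12 and CDK13. CDK7 is the kinase of the general transcription factor TFIIH. It phosphorylates the C-terminal domain of RNA polymerase II around initiation and activates other cyclin-dependent kinases, CDK9 among them. RNA that is made and degraded quickly is known to follow a loss of transcription sooner than long-lived RNA, such as that of ribosomal proteins.

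The sum of the listed FPKM values was 462997 with DMSO and 458056 at 50 nM. FPKM keeps no read counts. Low values move in steps of whole reads, and from these the depth at 50 nM was put at about 96.4% of that with DMSO, which is a rough figure because 30 of 3872 low genes sat at that step. EEF1A1 encodes a translation elongation factor. Its value was 4400.04 FPKM with DMSO but 0 at 50 nM and 200 nM, and it was set aside. All 10 Ewing sarcoma markers were above 1 FPKM, with a summed level of 1244 FPKM with DMSO and 956 FPKM at 50 nM. Of 8 lymphoid and myeloid markers, PTPRC alone was above 1 FPKM (10.2 with DMSO, 7.90 at 50 nM), and CD3D, CD3E and MS4A1 were listed at 0. Of 7 epithelial markers, KRT18 and KRT8 were above 1 FPKM, with a sum over the list of 156 and 91.0 FPKM. None of 4 endothelial and 5 muscle markers reached 1 FPKM in either library.

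At the low dose most of the active transcriptome moved little, and most of what moved went down. Of the active genes 1874 fell (15.8%) and 56 rose (0.471%), while 7622 held (64.1%). A further 2110 genes were lower and 233 higher by 1.5- to 2-fold. A drop of at least 4-fold was seen in 146 genes and a gain of that size in 3. The median log2 fold change was -0.32, with quartiles at -0.76 and 0.036, and 73.0% of genes were below 0. Scaled to the 75th percentile of each library, this median moved by 0.25 to -0.069, with 1220 genes that fell and 147 that rose. Scaled to the ribosomal protein genes, it moved by -0.28 to -0.60, with 2994 and 21. List medians are therefore read against that of all active genes. The counts in each list are likewise read beside the 15.8% that fell, 64.1% that held and 0.471% that rose. Of 64 functional lists 10 had a median above 0. On the ribosomal protein scale 8 of these were below 0, and on the 75th percentile scale 24 others moved above 0. FPKM is relative within a library, so neither cell number nor RNA per cell can be read from it. A loss of RNA shared by all genes would not show, and genes that held or rose may have kept or gained share only. The genes that fell were of moderate level, with a median of 10.3 FPKM with DMSO (1.01 to 356) and of 3.06 FPKM at 50 nM. Together they held 6.68% of the FPKM of active genes with DMSO and 2.30% at 50 nM. The genes that rose had a median of 8.60 FPKM with DMSO (1.11 to 110.4) and of 24.2 FPKM at 50 nM, and their part of the FPKM went from 0.187% to 0.476%. The genes that held carried 83.6% with DMSO and 90.9% at 50 nM.

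**Figure D1:**
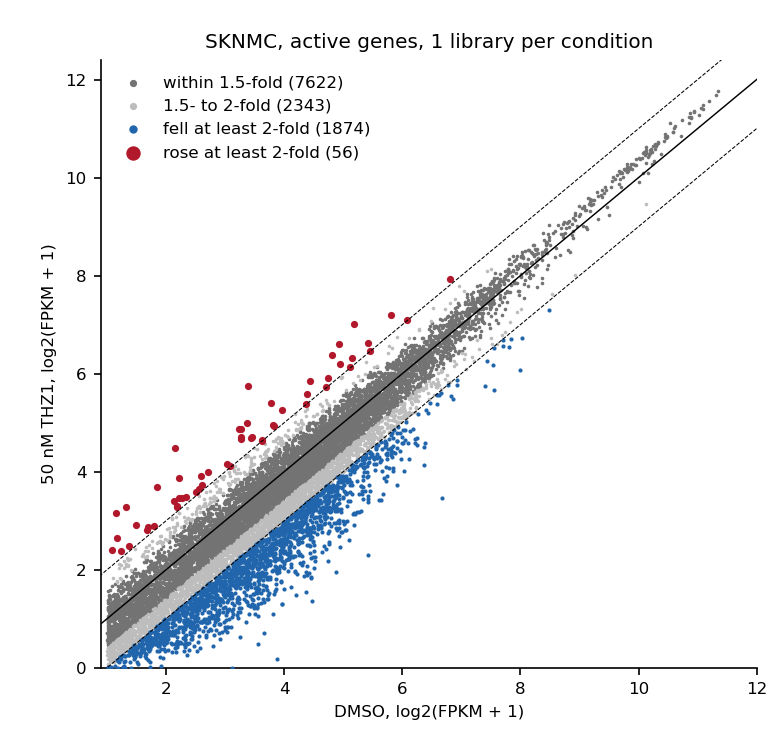
Each point is 1 of the 11895 active genes of SKNMC, with log2(FPKM + 1) with DMSO on the x axis and at 50 nM THZ1 on the y axis, 1 library each; the solid line marks equality and the dashed lines 2-fold. The 1874 genes that fell lie below the lower dashed line at moderate levels, the 56 that rose above the upper one, and the most abundant genes lie close to and slightly above equality.

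The transcript of CDK7 held, at 30.4 FPKM with DMSO and 22 FPKM at 50 nM (log2 fold change -0.45). Those of its partners cyclin H (CCNH, 25.1 to 30.2 FPKM) and MNAT1 (33.6 to 27.9 FPKM) held as well. Among the 11 TFIIH genes 2 fell, 6 held (54.5%, beside 64.1% of all active genes) and 10 were below 0, with a median of -0.45. The 2 that fell were GTF2H2 (9.50 to 2.37 FPKM) and GTF2H2C (14.5 to 3.51 FPKM), near-identical copies whose reads cannot be assigned with certainty. The DNA helicase ERCC3, the target of other transcription inhibitors, went from 26.6 to 16.8 FPKM.

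RNA polymerase II itself behaved differently across its subunits. POLR2A, which encodes the largest subunit and carries the C-terminal domain that CDK7 phosphorylates, rose from 29.2 to 96.8 FPKM (1.69) and stood at 46.8 FPKM at 200 nM. None of the 12 subunit genes fell, 9 held and the median was 0.02, which became -0.31 on the ribosomal protein scale. POLR2D had the lowest fold change, from 34.4 to 17.3 FPKM (-0.95). In A673 at 50 nM POLR2A went from 37.6 to 116 FPKM.

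P-TEFb, the CDK9 kinase that releases paused polymerase, and the 7SK particle that inhibits it split in both directions. Of 7 genes 3 fell (42.9%, beside 15.8% of all active genes), 2 rose (beside 0.471%) and 1 held (14.3%, beside 64.1%). MEPCE, the capping enzyme of 7SK RNA, fell from 42.6 to 11.2 FPKM (-1.83). LARP7, which protects 7SK RNA, fell from 20.7 to 7.51 FPKM (-1.35), and the inhibitor HEXIM2 from 2.32 to 0.360 FPKM (-1.29). The related inhibitor HEXIM1 rose from 19.7 to 40.6 FPKM (1.01), and cyclin T2 (CCNT2) from 13.1 to 29.7 FPKM (1.12). CDK9 went from 20.3 to 13 FPKM and cyclin T1 (CCNT1) from 16.6 to 23.4 FPKM. At 200 nM, which shares the DMSO library, CCNT1 stood at 4.20 FPKM and CCNT2 at 11.6 FPKM. With genes above 5 FPKM alone, HEXIM2 dropped out and the list median moved from below to above that of all genes.

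Among the other factors of transcription, the 9 active genes of the super elongation complex held in 8 cases (median 0.05). CDK12 went from 19.9 to 14.7 FPKM and CDK13 from 18.3 to 18.2 FPKM. In that group of 7 genes cyclin L1 (CCNL1) rose from 24.9 to 51.6 FPKM. Mediator, the complex that links activators to the polymerase, had 6 of 32 genes that fell (18.8%, beside 15.8% of all active genes). Its median was -0.34, next to -0.32 for all genes. Its lowest member was MED7 (7.08 to 1.11 FPKM, -1.94) and its highest MED26 (4.07 to 8.51 FPKM, 0.91). GTF2E1, a subunit of TFIIE, which recruits TFIIH, fell from 10.7 to 1.45 FPKM (-2.25). It was 1 of 2 among 31 genes of TFIID and the general factors that fell (6.45%, beside 15.8% of all active genes). The bromodomain gene BRD2, whose protein reads acetylated histones, rose from 110.4 to 241 FPKM (1.12), while BRD3 went from 11.3 to 7.55 FPKM. BRD2 stood at 78.9 FPKM at 200 nM.

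The 15 genes with the lowest fold changes among those at 10 FPKM or more with DMSO kept between 0.929% and 13.6% of their DMSO level. The lowest was KRCC1 (chr2:88326723-88355248 on hg19), a gene of little known function, from 13.7 to 0.128 FPKM (-3.71). KCNE3 (chr11:74165885-74178774), a potassium channel beta subunit, fell from 100.5 to 10.0 FPKM (-3.21). GDF6, a secreted growth factor of the BMP family, fell from 41.8 to 3.88 FPKM. FADD (chr11:70049268-70053496), the adaptor that joins death receptors to caspase-8, fell from 19.6 to 1.91 FPKM (-2.82).

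Others of these 15 genes have diverse known roles. PPP1R10, a regulator of protein phosphatase 1 and a partner of the polymerase termination machinery, fell from 21.1 to 1.57 FPKM (-3.10) and stood at 6.54 FPKM at 200 nM. ZC3H4, a zinc finger protein that restrains noncoding transcription, fell from 11.6 to 0.641 FPKM (-2.95). EXOSC3, a subunit of the RNA exosome, fell from 25.6 to 3.48 FPKM (-2.57), and ZNF691 from 10.8 to 0.394 FPKM (-3.08). PRR3, C1orf131, CSRP2BP, KLHL22, TRIM69, YAE1D1 and CCM2 had log2 fold changes between -2.93 and -2.59. In A673 at 50 nM, where 70.1% of its active genes were below 0, each of the 15 genes was lower than with DMSO, KRCC1 going from 6.50 to 0.150 FPKM and KCNE3 from 20.8 to 2.21 FPKM. On the opposite strand, the locus of PPP1R10 overlaps that of the active gene MRPS18B, PRR3 that of GNL1, ZC3H4 that of SAE1 and EXOSC3 those of DCAF10 and TRMT10B. Whether the counting used strand is not given in the sources used here. On the same strand, CSRP2BP overlaps the active gene PET117 and KLHL22 overlaps SCARF2, so their reads may be shared.

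The 15 genes with the highest fold changes among those at 10 FPKM or more at 50 nM reached between 276% and 618% of their DMSO level. SAT1 (chrX:23801289-23804343), the enzyme that starts polyamine breakdown, rose from 9.42 to 52.5 FPKM (2.36) and stood at 37.5 FPKM at 200 nM. TNRC6B, a scaffold of microRNA silencing, rose from 3.45 to 21.3 FPKM (2.33), with 4.97 FPKM at 200 nM. NXF1 (chr11:62559594-62573774), the main export receptor of mRNA, rose from 35.2 to 128 FPKM (1.84), with 55.9 FPKM at 200 nM. RBM15, which guides methylation of RNA, rose from 8.34 to 28.1 FPKM (1.64), and the chromatin remodeler CHD2 from 9.26 to 30.8 FPKM (1.63).

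Among these genes 3 are immediate early genes, and they stood higher still at 200 nM. IER5L went from 12.7 to 41.0 and 65.7 FPKM at DMSO, 50 nM and 200 nM, JUNB from 27.1 to 81.9 and 135 FPKM, and IER2 from 20.5 to 56.7 and 91.5 FPKM. FBXW7, which directs MYC and cyclin E to degradation, rose from 4.98 to 14.1 FPKM (1.34). TOB1, an antiproliferative partner of the deadenylase, rose from 8.56 to 24.4 FPKM (1.41). HSPA1B, an inducible heat shock protein 70 gene, rose from 8.63 to 25 FPKM (1.43). It is nearly identical to HSPA1A (2.56 to 3.79 FPKM), so the split between them is uncertain. TG, known for thyroglobulin of the thyroid, rose from 8.66 to 28.3 FPKM and stood at 6.66 FPKM at 200 nM. In A673 TG was at 0.0968 FPKM with DMSO and 0.0166 FPKM at 50 nM.

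**Figure D2:**
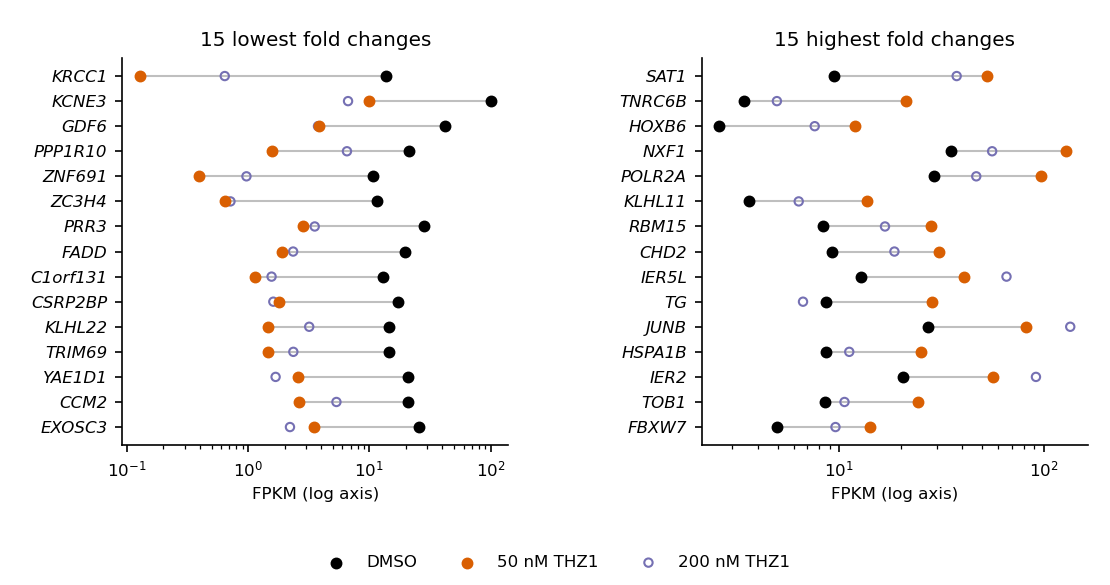
FPKM on a log axis for the 15 genes with the lowest (left) and the 15 with the highest (right) log2 fold changes in SKNMC, 1 library per point: DMSO (black), 50 nM THZ1 (orange) and 200 nM THZ1 (open), a grey line joining DMSO and 50 nM. KRCC1 lies farthest to the left at 50 nM (0.128 FPKM), and IER5L, JUNB and IER2 are the genes on the right whose 200 nM point lies beyond the 50 nM point.

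Zinc finger transcription factors were the largest family examined, and many fell. Of 374 active ZNF genes 127 fell (34.0% against 15.8% of all active genes), 152 held and 1 rose, with a median of -0.74. Of 57 ZBTB, ZSCAN and ZKSCAN genes 24 fell (42.1%) and 1 rose, with a median of -0.83. ZNF691 was the lowest of the first list and ZSCAN31 (6.00 to 0.577 FPKM, -2.15) of the second. ZNF587B (3.83 to 9.96 FPKM, 1.18) and ZBTB34 (4.70 to 11 FPKM, 1.07) were the 2 that rose. The locus of ZNF587B overlaps those of the active genes ZNF586, ZNF587 and ZNF814, so its reads may be shared. Many ZNF genes sit in clusters on chromosome 19, where 22.4% of active genes fell. Of the zinc finger genes 35.0% fell on chromosome 19 and 34.9% elsewhere, while among the other genes of chromosome 19 the share was 19.1%.

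Other transcription factor families gave mixed values. Of 27 immediate early genes, which respond to growth signals without new protein synthesis, 3 fell, 16 held and 3 rose, with a median of 0.11. Their lowest member was BTG2 (13.7 to 3.07 FPKM, -1.85), EGR4 (2.71 to 0.161 FPKM) and EGR1 (2.38 to 0.484 FPKM) fell too, and the 3 that rose were IER5L, JUNB and IER2. JUN went from 27.2 to 17.4 FPKM and FOS from 14.0 to 18.9 FPKM. Of the MYC network MLX, a partner of the glucose sensor MLXIP, fell from 30.5 to 5.84 FPKM (-2.20), the 1 gene of 11 that did. MYC held at 198 and 167 FPKM (-0.24), with 76.8 FPKM at 200 nM, and MAX held at 40.2 and 35.2 FPKM. Of 13 KLF genes 2 fell, KLF15 (1.83 to 0.0799 FPKM) and KLF2 (4.89 to 1.48 FPKM), and 9 held.

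HOX genes, which set position along the body axis, included members at both ends. HOXB5 rose from 1.21 to 7.89 FPKM (2.01) and its neighbour HOXB6 from 2.59 to 11.9 FPKM (1.84), while HOXD8 (8.68 to 2.80 FPKM, -1.35), HOXB3 (2.84 to 0.590 FPKM), HOXB13 (9.48 to 3.39 FPKM) and HOXC12 (6.55 to 2.35 FPKM) fell. HOXB5 and HOXB6 both overlap HOXB3, so their reads may be shared. HOXD13, the most abundant, went from 92.8 to 54.6 FPKM (-0.76). With genes above 5 FPKM alone the HOX median moved from above to below that of all genes. Of 8 SOX genes SOX18 (67.6 to 22.9 FPKM, -1.52) and SOX2 (25.1 to 11.7 FPKM, -1.03) fell, while SOX4 held at 35.5 and 35.8 FPKM. SOX18 overlaps the active gene ZNF512B on the same strand, so its reads may be shared. Of 15 ETS family genes, the family of FLI1, 3 fell (20%, beside 15.8% of all active genes), 6 held and the median was -0.61. The 3 that fell were ELF4 (8.43 to 2.25 FPKM), ETV5 (18.5 to 7.30 FPKM) and ERF (97.7 to 46.3 FPKM).

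Genes that EWS-FLI1 is known to activate had a lower median than genes it represses, a difference that was not tested. Of 39 activated genes 12 fell (30.8%, beside 15.8% of all active genes) and 18 held (46.2%, beside 64.1%), with a median of -0.61. None rose, beside 0.471% of all active genes. APCDD1 (chr18:10454624-10489945), an inhibitor of WNT signaling at the membrane, was the lowest, from 187 to 50.0 FPKM (-1.88), with 54.0 FPKM at 200 nM. The homeobox factor MEIS1 (chr2:66660583-66801001) fell from 54.7 to 21.2 FPKM (-1.33), with 18.7 FPKM at 200 nM. NR0B1, a nuclear receptor that works with EWS-FLI1, fell from 25.2 to 8.20 FPKM (-1.51), and the potassium channel subunit KCNE4 from 22.3 to 5.59 FPKM (-1.83). STEAP1, a protein of the cell surface, fell from 208 to 101 FPKM (-1.03), the zinc finger factor BCL11B from 21.4 to 9.06 FPKM (-1.16) and the coactivator CITED2 from 208 to 93.2 FPKM (-1.15). Of 16 repressed genes 3 fell (18.8%) and 10 held (62.5%), shares near those of all active genes, with a median of -0.23. The lowest of them was DKK1, a secreted WNT inhibitor, from 18.2 to 3.41 FPKM (-2.12).

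FLI1, whose value can include reads of the fusion transcript, went from 27.3 to 15.2 FPKM (-0.80) and to 4.56 FPKM at 200 nM. EWSR1 held at 161 and 170.1 FPKM. Cyclin D1 (CCND1) went from 370.2 to 197 FPKM (-0.91), the fifth largest loss in FPKM of all active genes. NKX2-2, a homeobox factor that defines this tumor, went from 37.6 to 27.3 FPKM (-0.45), and LINGO1 from 64.1 to 39.9 FPKM (-0.67). HOOK1 went from 63.9 to 36.8 FPKM (-0.78), and IGF2BP1 from 39.2 to 29.2 FPKM (-0.41). The surface antigen CD99 held at 313 and 353 FPKM.

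The study lists genes near super-enhancers, large clusters of enhancers, shared by cell lines and tumors, and that list was drawn partly from maps of these cell lines. Of its 141 active genes 31 fell (22%, beside 15.8% of all active genes), 83 held (58.9%, beside 64.1%) and 3 rose. Their median was -0.38 beside -0.32 for all active genes. The lowest were ZC3H4 and the neural factor ZIC5 (10.2 to 1.42 FPKM, -2.21). The 3 that rose were IER2, BRD2 and SMAD7, an inhibitor of TGF-beta signaling (11.3 to 24.1 FPKM, 1.02).

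Genes of DNA repair had low medians. Of 47 genes of the Fanconi pathway, homologous recombination and the checkpoint 17 fell (36.2%, beside 15.8% of all active genes) and 22 held. None rose, beside 0.471% of all active genes, and 45 were below 0, with a median of -0.75. ATRIP, the partner of the checkpoint kinase ATR, fell from 6.53 to 0.494 FPKM (-2.33), FANCF from 14.3 to 2.37 FPKM (-2.18) and BRCA1 from 9.66 to 2.49 FPKM (-1.61). ATRIP overlaps the active gene TREX1 on the same strand, so its reads may be shared. FANCA, the highest of the list, held at 19.6 and 23.9 FPKM. Of 35 genes of excision, mismatch and end-joining repair 8 fell (22.9%) and 19 held (54.3%, beside 64.1% of all active genes). The median was -0.56. There the glycosylase SMUG1 fell from 18.9 to 5.38 FPKM (-1.64), while the abundant end-joining gene XRCC6 held at 235 and 236 FPKM and PRKDC went from 67.0 to 91.9 FPKM (0.45).

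Among cell cycle genes, the share that held was below the 64.1% of all active genes for the cyclin and mitosis lists. For DNA replication genes it was near that share. The shares that fell were 14.3% for the cyclin list, 17.4% for DNA replication and 17.5% for mitosis, near the 15.8% of all active genes. Of 35 cyclins, cyclin-dependent kinases, E2F and RB genes 5 fell, 17 held (48.6%) and none rose, with a median of -0.57. E2F8 fell from 6.92 to 0.709 FPKM (-2.21), E2F5 from 26.1 to 4.88 FPKM (-2.20), cyclin E2 (CCNE2) from 21.3 to 8.31 FPKM, E2F1 from 40.5 to 18.7 FPKM and cyclin B1 (CCNB1) from 99.6 to 47.6 FPKM. Of 46 DNA replication genes 8 fell and 29 held (63%), and the median of -0.32 was that of all genes. GINS1 of the replicative helicase (29.4 to 5.40 FPKM, -2.25) and POLA2 of DNA polymerase alpha (35.4 to 7.87 FPKM, -2.04) fell, while PCNA held at 264 and 292 FPKM. Of 40 mitosis genes 7 fell, among them BORA (8.76 to 2.27 FPKM) and the kinases AURKB (33.4 to 11.1 FPKM) and AURKA (50.9 to 21.7 FPKM), and 22 held (55.0%).

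Of the genes of cell death, the death receptor branch had the lower median. Of 19 death receptor and caspase genes 4 fell (21.1%, beside 15.8% of all active genes) and 6 held (31.6%, beside 64.1%). Below 0 were 18, beside 73.0% of all active genes, and the median was -0.83. Beside FADD, the receptor TNFRSF1A fell from 35.4 to 6.55 FPKM (-2.27), and CASP8 from 22.9 to 8.02 FPKM (-1.41). CFLAR, which blocks caspase-8, held at 15.7 and 17.4 FPKM. Of 15 BCL2 family genes 3 fell (20%) and 8 held (53.3%). The short-lived survival factor MCL1 held at 63.8 and 64.8 FPKM, with 31.8 FPKM at 200 nM, while BCL2L2 fell from 12.5 to 3.51 FPKM (-1.58) and BCL2L1 went from 16.9 to 10.3 FPKM (-0.67). BCL2L2 overlaps active genes, BCL2L2-PABPN1 among them, so its reads may be shared. Of 18 p53 genes 5 fell (27.8%), led by PHLDA3 (33.2 to 5.04 FPKM, -2.50), and GADD45A was the highest (14.2 to 24 FPKM, 0.72).

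Among signaling genes, the feedback phosphatases and inhibitors of MAP kinases were low. Of 21 DUSP, SPRY and SPRED genes 6 fell (28.6%, beside 15.8% of all active genes) and 10 held (47.6%, beside 64.1%), with a median of -0.70. None rose, beside 0.471% of all active genes. DUSP2 fell from 81.7 to 16.6 FPKM (-2.24), DUSP16 from 5.51 to 1.19 FPKM and DUSP6 from 4.75 to 1.28 FPKM. Of the 35 MAP kinase cascade genes themselves 29 held (median -0.15). Of 34 WNT pathway genes 7 fell (20.6%, beside 15.8% of all active genes) and 19 held (55.9%, beside 64.1%). Lowest were DKK1, the receptor FZD8 (20.7 to 4.56 FPKM, -1.96) and APCDD1, and beta-catenin (CTNNB1) went from 76.9 to 117 FPKM (0.60). Of 30 TGF-beta and BMP genes 4 fell and 1 rose. Their lowest was TGIF2, a repressor of that pathway (38.3 to 8.20 FPKM, -2.09). TGIF2 overlaps the active gene TGIF2-C20orf24 on the same strand, so its reads may be shared. Of 27 insulin and IGF genes IRS1 fell (5.91 to 1.91 FPKM, -1.25) and 20 held. Of 27 NF-kB and JAK-STAT genes 1 fell and 16 held, of 13 Notch genes none fell and 10 held, and of 16 clock genes 4 fell, TEF (3.43 to 0.392 FPKM) and CLOCK (9.41 to 2.58 FPKM) among them.

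Stress responses did not move as a group in 1 direction. The list of the ATF4 response to amino acid and unfolded protein stress had 21 genes. Of these 6 fell (28.6%, beside 15.8% of all active genes) and 10 held (47.6%, beside 64.1%), with a median of -0.60. DDIT3, the death-promoting factor of that response, fell from 10.7 to 1.07 FPKM (-2.50), TRIB3 from 12 to 3.19 FPKM and CHAC1 from 3.07 to 0.273 FPKM. ATF4 itself went from 225 to 131 FPKM (-0.78). Of 21 endoplasmic reticulum genes 2 fell, XBP1 (35.8 to 7.80 FPKM, -2.07) and DNAJB9 (13.1 to 5.72 FPKM, -1.07). Of 22 heat shock genes 18 held. The constitutive chaperone HSPA8 showed the largest loss of FPKM of all active genes, from 1113 to 708 FPKM (-0.65), and its cofactor DNAJB1 fell from 29.3 to 13.1 FPKM (-1.11). Of 23 oxidative stress and ferritin genes 20 held, with a median of 0.16. The ferritin light chain FTL gained 725 FPKM, from 1486 to 2211 FPKM (0.57), and KEAP1, the sensor that restrains the antioxidant factor NFE2L2, fell from 24.4 to 6.57 FPKM (-1.74).

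**Figure D3:**
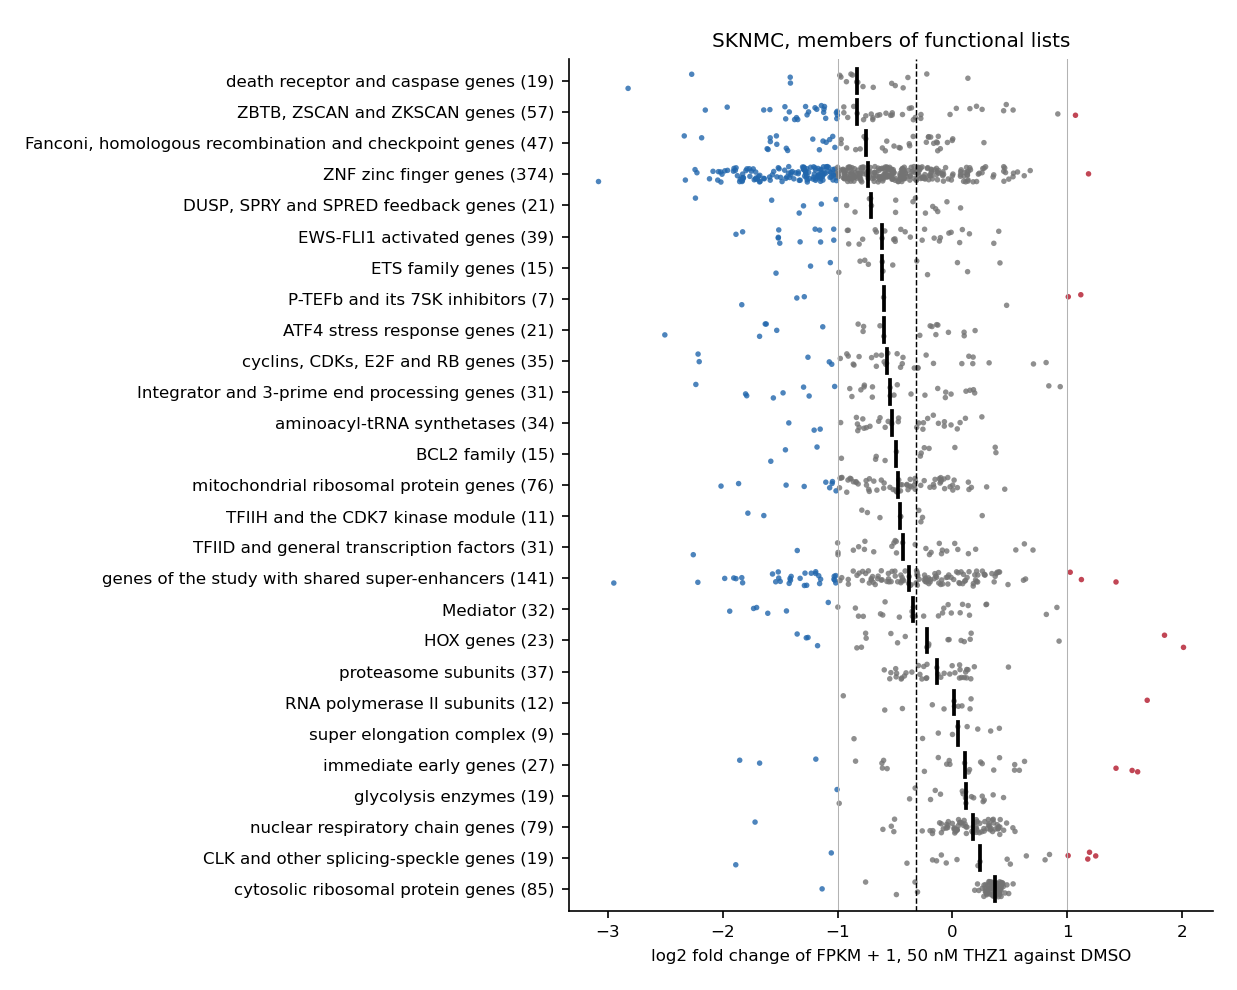
Log2 fold changes of FPKM + 1 at 50 nM THZ1 against DMSO in SKNMC for the active members of 27 of the functional lists (number of members in brackets); each point is 1 gene, blue where it fell and red where it rose at least 2-fold, black bars are list medians, the dashed line is the median of all active genes and grey lines mark 2-fold. Death receptor, zinc finger and Fanconi genes lie at the low end, and cytosolic ribosomal protein genes form a tight group around 0.37.

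The most abundant transcripts held. Of the 119 active genes above 500 FPKM 118 held, HSPA8 being the exception, and their median was 0.34. Of 85 cytosolic ribosomal protein genes 83 held and 1 fell, with a median of 0.37. RPS27, the most abundant active gene, went from 2612 to 3499 FPKM (0.42), RPL37A from 2543 to 3280.4 FPKM and RPS19 from 2337 to 3037 FPKM. The 1 that fell was RPL7L1 (83.0 to 37.3 FPKM, -1.13), a ribosomal protein-like gene. As a group these genes went from 19.5% to 25.1% of the FPKM of active genes. On the scale that divides by their own median FPKM the list median was 0.036.

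Most genes of respiration and glycolysis held too, while 64.1% of all active genes held. Of 79 nuclear genes of the respiratory chain 77 held, with a median of 0.18, and NDUFV3 fell (17.8 to 4.72 FPKM, -1.72). NDUFA4 was highest, from 222 to 323 FPKM (0.54). Of 19 glycolysis genes 17 held (median 0.11). On the ribosomal protein scale the median was -0.15 for the respiratory chain and -0.21 for glycolysis. GAPDH went from 1879 to 2556 FPKM (0.44), and the phosphofructokinase PFKP fell from 56.8 to 27.8 FPKM (-1.004). Of 37 proteasome genes 36 held, as did all 8 genes of the chaperonin CCT. Of 29 actin cytoskeleton genes 27 held, with CFL2 the 1 that fell (36.0 to 16.3 FPKM).

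The mitochondrial ribosome did not follow the cytosolic one. Of 76 mitochondrial ribosomal protein genes 9 fell (11.8%, beside 15.8% of all active genes) and 45 held (59.2%, beside 64.1%). Their median was -0.47, beside -0.32 for all active genes. Below 0 were 67 of them, in contrast to 5 of 85 cytosolic genes, while 73.0% of all active genes were below 0. The mitochondrial list thus lay nearer to all active genes than the cytosolic one. MRPL17 fell from 64.2 to 15.2 FPKM (-2.01) and MRPL36 from 68.4 to 18.1 FPKM (-1.86). Of 34 aminoacyl-tRNA synthetases, which charge tRNA, 3 fell (8.82%) and 19 held (55.9%). Their median was -0.53, with FARSA lowest (48.1 to 17.3 FPKM, -1.42). Of 46 genes of ribosome biogenesis 5 fell (10.9%) and 27 held (58.7%), with a median of -0.45. UTP3 was lowest (20.3 to 5.53 FPKM) and NPM1 most abundant (1325 to 1437 FPKM). Of 59 translation factors 2 fell, EIF1B (33.0 to 12.9 FPKM) and EIF5 (121 to 57.3 FPKM), and 47 held.

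The list with the most genes that rose was one of RNA processing. The lists were chosen with earlier results of these data known, so this rank carries no weight. The list holds 19 CLK and splicing-speckle genes, whose products phosphorylate or accompany splicing factors. Of these 4 rose, beside 0.471% of all active genes, while 10 held and 2 fell, with a median of 0.24. The median became 0.52 on the 75th percentile scale and -0.081 on the ribosomal protein scale. On the latter scale the 4 genes lay between 0.68 and 0.92, under 2-fold. C1orf63 rose from 29.7 to 71.9 FPKM (1.25), PAXBP1 from 19.9 to 46.8 FPKM (1.19), the kinase CLK1 from 34.4 to 79 FPKM (1.18) and ARGLU1 from 42.9 to 87.1 FPKM (1.01). The related kinase CLK2 fell from 24.8 to 11.4 FPKM (-1.05). Of 33 RBM genes 3 rose and 4 fell. RBM15, RBM33 (14.6 to 37.4 FPKM, 1.30) and RBM14 (41.6 to 97.6 FPKM, 1.21) rose, while RBM23 fell from 27.8 to 6.71 FPKM (-1.90).

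The splicing regulators of the SR and hnRNP families mostly held, with abundant exceptions. Of 34 genes 27 held, 5 fell and none rose. HNRNPDL, which binds AU-rich RNA, fell from 254 to 66.4 FPKM (-1.92) and its relative HNRNPD from 356 to 156 FPKM (-1.19), both among the 5 largest losses in FPKM. SRSF3 (168 to 53 FPKM, -1.65), SRSF1 (222 to 92.8 FPKM, -1.25) and SRSF7 (186 to 90.5 FPKM, -1.03) fell as well. HNRNPU was the highest, from 233 to 337 FPKM (0.53). Of 31 genes of Integrator and 3′ end processing 8 fell (25.8%, beside 15.8% of all active genes) and 14 held (45.2%, beside 64.1%). Their median was -0.54. INTS5 fell from 17.1 to 2.86 FPKM (-2.23) and the cleavage factor CSTF1 from 30.3 to 8.05 FPKM (-1.79), while RBBP6 went from 30.2 to 58.7 FPKM (0.94). Of 35 nuclear pore and export genes 2 fell, NUP37 (28.3 to 6.73 FPKM) and NUP62 (52.4 to 14.0 FPKM), and NXF1 was the 1 that rose. Of 45 mRNA decay genes 8 fell (17.8%) and 29 held (64.4%), shares near those of all active genes.

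Chromatin genes held in shares near the 64.1% of all active genes. Of 63 histone modifying enzymes 43 held (68.3%) and 6 fell, led by the H3K9 methyltransferase SUV39H1 (14.0 to 3.03 FPKM, -1.90). Of 33 SWI/SNF, ARID and CHD genes 24 held (72.7%), 3 fell and 2 rose, CHD2 and CHD6. Of 27 Polycomb genes 19 held (70.4%), and CBX6 (28.3 to 6.19 FPKM, -2.02) and CBX2 fell. Of 12 active clustered histone genes 10 held.

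LincRNA genes were of low level, with a median of 2.30 FPKM with DMSO. Of 345 active ones 70 fell (20.3%), 180 held and 5 rose, with a median of -0.48. The most abundant, LINC00657, which encodes a sponge of Pumilio proteins, went from 115 to 81.7 FPKM (-0.49). Among those at 5 FPKM or more, LINC00339 (16.3 to 2.12 FPKM, -2.47), LINC00909 (8.28 to 1.19 FPKM) and RP11-259N19.1 (6.20 to 0.707 FPKM) were lowest. LINC00909 overlaps ZNF407 and RP11-259N19.1 overlaps HK2. The imprinted MEG3 rose from 3.54 to 8.88 FPKM (1.12) and stood at 25.1 FPKM at 200 nM, and LINC01155 rose from 2.22 to 6.27 FPKM (1.17).

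The genes that fell were shorter and had fewer exons than those that held. Their median span was 19 kb, against 37.6 kb for genes that held, 22.2 kb for genes that rose and 31.8 kb for all active genes. They had a median of 7 annotated exons against 10 for genes that held. Of genes up to 5 kb 22.7% fell, of genes of 100 to 200 kb 6.30%, and of genes over 200 kb 4.51%. Without the zinc finger lists the first and last of these shares were 22.1% and 4.43%, and within 10 to 50 FPKM they were 27.5% and 3.77%. Of genes with 1 exon 33.2% fell, and of those with over 20 exons 4.70%. Single-exon genes made up 12.7% of the annotated genes that rose (7 genes), 4.27% of those that fell and 2.01% of all active genes. The median transcript GC content was 50.6% for genes that fell and 46.8% for genes that held. Another active gene on the opposite strand overlapped 25% of the genes that fell and 20.9% of those that held. The span, exon number, GC content and level of a gene are related to each other, and genes are not independent replicates, so these values describe the classes only.

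The share that fell also varied with level and chromosome. It was highest for genes of 5 to 10 FPKM (23%) and fell to 2.80% at 100 to 500 FPKM. It was 6.81% at 1 to 2 FPKM, where the added 1 FPKM limits how low the ratio can go. Chromosome 19 (22.4%) and chromosome 22 (22.1%) had the highest shares, and chromosome X (7.29%) and chromosome 4 (10.3%) the lowest.

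**Figure D4:**
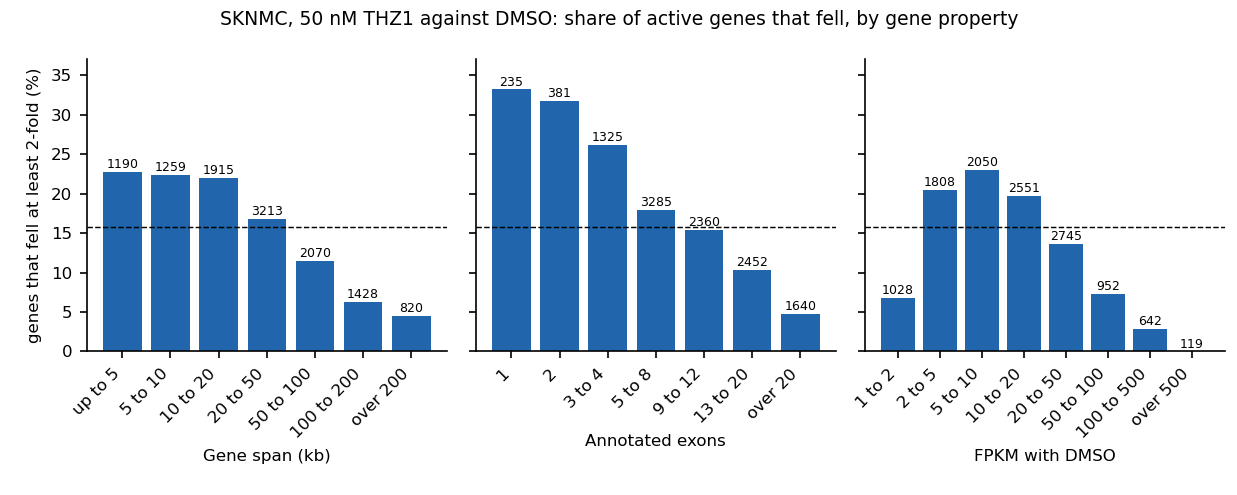
Percent of active SKNMC genes that fell at least 2-fold at 50 nM THZ1, by gene span in kb, by number of annotated exons and by FPKM with DMSO; numbers over the bars are genes per bin and the dashed line is the 15.8% of all active genes. The share goes from 22.7% to 4.51% with span and from 33.2% to 4.70% with exon number, and peaks at 23% for genes of 5 to 10 FPKM.

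The sequence around the start of the genes was searched for short motifs. RefSeq windows on GRCh38.p14, from 250 bases before to 50 bases after the start of a gene, were matched for 81.6% of active genes. The share was 78.6% for the genes that rose, under the 80% set as a minimum, so no share is given for that class. The letters CCGGAAGT, the core of an ETS site, occurred on either strand in 12.7% of windows of genes that fell (192 of 1509). They occurred in 8.85% of genes that held and in 9.40% of all active genes (912 of 9704). The share was 4.44% of all 27305 windows in the table, which include genes that are not active. The letters TATAAA, the TATA box, occurred in 3.91% of genes that fell, 5.35% of genes that held and 12% of all windows. The letters GGGCGG, an SP-type site, occurred in 68.8% of genes that fell, 72.1% of genes that held and 44.6% of all windows. For CCAAT the shares were 37.5%, 36.3% and 35.7%. The E-box CACGTG was found in 10.7%, 10.5% and 7.43%. The cyclic AMP response element TGACGTCA was found in 3.25%, 3.32% and 1.98%. The repeat GGAAGGAA, which shares GGAAG with the ETS letters, was found in 2.98%, 3.29% and 3.58%. Over all active genes the shares were 5.21% for TATAAA, 71.3% for GGGCGG and 37.0% for CCAAT. They were 10.6% for CACGTG, 3.44% for TGACGTCA and 3.26% for GGAAGGAA. All these shares describe letters in a window and not bound sites.

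To show such starts, the 60 bases before the start are printed 5′ to 3′ on the strand of the gene, with the matched letters in capitals. Of the 30 genes with the lowest and highest fold changes 27 had a window. Of these, 4 held TATAAA within the 60 bases, 29 to 32 bases before the start. The share of all active genes with TATAAA in these 60 bases is not given, so no class difference can be read from the 4.
PPP1R10 (fell; chr6:30617244-30617303, minus strand): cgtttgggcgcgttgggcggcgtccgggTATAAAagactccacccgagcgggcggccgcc
NXF1 (rose; chr11:62805441-62805500, minus strand): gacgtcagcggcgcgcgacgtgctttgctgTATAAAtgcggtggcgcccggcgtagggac
JUNB (rose; chr19:12791426-12791485, plus strand): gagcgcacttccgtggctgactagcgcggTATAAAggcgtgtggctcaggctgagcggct
HSPA1B (rose; chr6:31827678-31827737, plus strand): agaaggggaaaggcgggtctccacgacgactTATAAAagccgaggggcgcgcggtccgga

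The next 4 are the genes with the lowest fold changes at 10 FPKM or more that hold CCGGAAGT, or its reverse complement ACTTCCGG, in the same 60 bases, shown because these letters were more frequent among genes that fell.
JAGN1 (fell; chr3:9890550-9890609, plus strand): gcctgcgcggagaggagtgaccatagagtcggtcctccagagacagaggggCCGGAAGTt
THAP7 (fell; chr22:21002119-21002178, minus strand): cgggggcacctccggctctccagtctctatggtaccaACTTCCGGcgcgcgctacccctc
TMEM138 (fell; chr11:61362314-61362373, plus strand): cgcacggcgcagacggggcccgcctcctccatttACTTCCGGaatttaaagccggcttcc
RFWD3 (fell; chr16:74666878-74666937, minus strand): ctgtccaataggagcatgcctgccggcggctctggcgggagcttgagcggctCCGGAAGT

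JAGN1 went from 32.2 to 5.96 FPKM (-2.25) and THAP7, a zinc finger repressor, from 31.1 to 6.62 FPKM (-2.08). TMEM138, a protein of the cilium, went from 31.5 to 6.82 FPKM (-2.06), and RFWD3, a ubiquitin ligase of DNA repair, from 18.8 to 3.87 FPKM (-2.02). All 4 stayed low at 200 nM, between 3.33 and 7.72 FPKM.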

How the data were processed

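TruSeq libraries of RNA from cells treated for 6 h were sequenced by the authors as 100-bp paired-end reads on a HiSeq2000. The study's methods name STAR and StringTie with hg19 and Ensembl 75, while the submitters' processing notes list STAR and Cufflinks, and versions and strand setting are not given in the sources used here. The authors deposited FPKM values per gene and their own log2 fold changes, which were not used. All values were recomputed from the FPKM columns with Python 3.11.15 and pandas 2.3.3. The title of the table speaks of average expression, but the labels give 1 library per condition. Read depth is unknown, so no counting interval can be given.

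Active genes were above 1 FPKM with DMSO. The log2 fold change used a pseudocount of 1 FPKM. For symbols on several rows the row with the highest DMSO FPKM was used for lists and named genes. The members, gene lists and classes were chosen with earlier results of these data known. Named genes were the 15 lowest and 15 highest fold changes at 10 FPKM or more, the 10 most abundant, the 5 largest gains and losses, the extremes and the most abundant member of each list, all members of lists of up to 12, genes the study discusses, and the leading lincRNA genes. Other list members named as examples, the motifs and the printed starts were chosen after their values were seen. Exon counts and GC content came from GENCODE release 44 on GRCh37, and start sequences from RefSeq. Overlaps came from the gene positions that the authors deposited, and only overlaps with active genes were counted. The alternatives were a pseudocount of 0.1, 3 scalings, active genes above 5 FPKM or in either library, lincRNA left out, genes at 0 left out, and a threshold of 1.5-fold. The steps were tested on simulated data. Single values of some list members are not reported here.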

Additional observations from a re-analysis of the deposited data

Results flagged for a closer look

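Of the 300 named genes 2 changed by at least 1.2-fold in opposite directions in SKNMC and A673 at 50 nM. GADD45A, a stress-induced gene of growth arrest, went from 14.2 to 24 FPKM in SKNMC (log2 fold change 0.72) and from 28.0 to 17.7 FPKM in A673 (-0.63). HIST1H2BD, a clustered histone gene, went from 42.9 to 24.9 FPKM in SKNMC (-0.76) and from 2.95 to 3.84 FPKM in A673 (0.29). Whether the lines differ was not tested, since each condition is 1 library.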

How the results depend on the processing

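No paired analysis was possible because each condition is 1 library and the labels give no replicate numbers, and for the same reason no library could be left out. With the 75th percentile as scale 1220 genes fell, 147 rose and the median was -0.069, and with the ribosomal protein median 2994 fell, 21 rose and the median was -0.60. A pseudocount of 0.1 gave 92 genes that rose and 2675 that fell, active genes above 5 FPKM gave 34 that rose, and the 1.5-fold threshold gave 3984 lower and 289 higher genes. The number that held stayed between 5762 and 8141 under these settings. Genes that held had 1.98 times the median span of genes that fell, and 1.84 to 2.14 times under the alternatives. Of the 64 list medians 36 lay above that of all genes. Mediator, DNA replication and mRNA decay changed side with the pseudocount of 0.1 and the 75th percentile, the chaperonin CCT and SWI/SNF lists with the ribosomal protein median, and the P-TEFb and HOX lists with genes above 5 FPKM. Whether genes that fell or rose keep their sign is no check here. The 3 scalings shifted the median log2 fold change by 0.0014, 0.25 and -0.28, less than the 2-fold change that defines these classes. A smaller pseudocount enlarges a change. Read depth is unknown, so the counting error of low genes cannot be given.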

Other observations

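Genes at or below 1 FPKM with DMSO were outside the active set, and 9 of them reached 3 FPKM or more at 50 nM. ANKRD30BL had the highest level, at 0.495 FPKM with DMSO, 26.0 FPKM at 50 nM and 60.9 FPKM at 200 nM, and in A673 it stood at 0.356 FPKM with DMSO and 25.9 FPKM at 50 nM. The readthrough gene RPL36A-HNRNPH2 stood at 0.306, 9.02 and 1.66 FPKM, and its reads can be shared with its parent genes. C11orf96 went from 0.862 to 4.99 FPKM and the imprinted gene NNAT from 0.466 to 3.72 FPKM. The lincRNA CTD-2105E13.13 stood at 0.204, 3.52 and 8.64 FPKM, and EID3 at 0.305, 3.20 and 3.40 FPKM. OCLM went from 0.340 to 3.06 FPKM and AL118506.1 from 0.814 to 3.73 FPKM. AP001579.1 was listed at 0 with DMSO and at 200 nM and at 4.55 FPKM at 50 nM.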
